A study of Mus musculus with 4 samples.

Results

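Scavenger and activation genes of macrophages were followed across the cells of mouse lung tumors, from a list of 10 genes: Mrc1, Marco, Msr1, Cd68, Clec7a, Mgl2, Gpnmb, Trem2, Spp1 and Chil3. The members were taken by gene symbol from the feature table of 31055 genes, and 9 of the 10 were found there. Clec7a, which encodes the beta-glucan receptor dectin-1, was not analysed here. The cells came from microdissected lung tumors of 4 female mice that carried the Lkb1XTR/XTR and Rosa26LSL-tdTomato alleles on a mixed C57BL/6J:129 background, 2 of them (Restored) with FLPo-ERT2 in addition and 2 (Non-Restored) without it. Lenti-Cre given into the trachea started the tumors, switched on the tdTomato reporter and trapped Lkb1, tumors grew for 16 weeks, and all 4 mice received tamoxifen in 4 mg doses for 2 weeks, which restores Lkb1 only where FLPo-ERT2 is present. Live cells were sorted by exclusion of a dye and profiled by 3' single-cell RNA sequencing, in which each captured transcript is counted once by its unique molecular identifier (UMI).

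The deposited matrix pooled the 4 mice, and no map from its cells to the mice was used, so that Restored and Non-Restored tumors were not compared. The pooled matrix is 1 sample, differences between cell types have no replicate check, and all intervals are 95% intervals that cover counting error only. They leave out variation between mice and between cells of a type. Of 20351 cells, 19488 passed the filters on genes and mitochondrial share, and 13891 were placed in 1 of 15 cell types by counting how many of 8 gate markers of each type had a UMI. The members were not among the gate markers. However, Clec10a, a lectin gene closely related to Mgl2, was 1 of the 8 gate markers of cDC2-like cells. Its part in the Mgl2 level of that gate was not tested. The gates held 1184 alveolar macrophage-like cells, 1954 C1q-high macrophage-like cells, 359 classical monocyte-like cells, 161 non-classical monocyte-like cells and 130 cDC2-like cells (type 2 conventional dendritic cells), beside lymphoid, granulocytic, epithelial, endothelial and stromal types. All 5 markers kept aside to check the alveolar gate (Ear2, Lpl, Abcg1, Mgll and Il18), all 5 for the C1q-high gate and all 5 for the classical monocyte gate were at least 2-fold higher in the gated cells than in the others, as were the 4 cDC2 markers looked up. The non-classical monocyte gate passed for 4 of 5, Ear2 being the exception, and the neutrophil gate for 3 of 4, Slpi being the exception.

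Alveolar macrophages live on the air side of the alveolus, where they take up surfactant, dust and microbes, while macrophages that express complement C1q are found in lung tissue and in tumors and are replenished in part from blood monocytes. Scavenger receptors are surface proteins that bind modified lipoproteins, dying cells, polyanions and microbial surfaces and carry them into the lysosome. Several of the members are widely used to tell macrophage states apart: Mrc1, Mgl2 and Chil3 are read as genes of alternative activation, and Trem2, Gpnmb and Spp1 as genes of macrophages loaded with lipid. Levels are given as UMIs per 1000000 UMIs of a cell type (CPM) and are compared between cell types, not between genes.

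Most members were highest in the alveolar macrophage-like cells. Of 9 members measured at 50 CPM or more in either macrophage type, 7 were at least 2-fold higher in alveolar macrophage-like than in C1q-high macrophage-like cells, against 18.2% of the 3214 genes tested in the same way. Only Mgl2 was at least 2-fold lower there, against 9.61% of all genes tested, and Trem2 lay within 2-fold. Marco, Msr1 and Gpnmb were under 50 CPM in C1q-high cells, and Mgl2 in alveolar cells. Each of these was tested only through the type in which it was higher, by the rule used for all genes. The median log2 ratio was 2.11 over the 9 members and 0.23 over all genes tested. The count was 6 with a gate margin of 3 markers, where Cd68 fell to a log2 ratio of 0.86, and 5 where no other type could have 2 or more gate markers, where Cd68 was at 0.73 and Msr1 at 0.79. It stayed at 7 under the other alternatives.

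**Figure D1:**
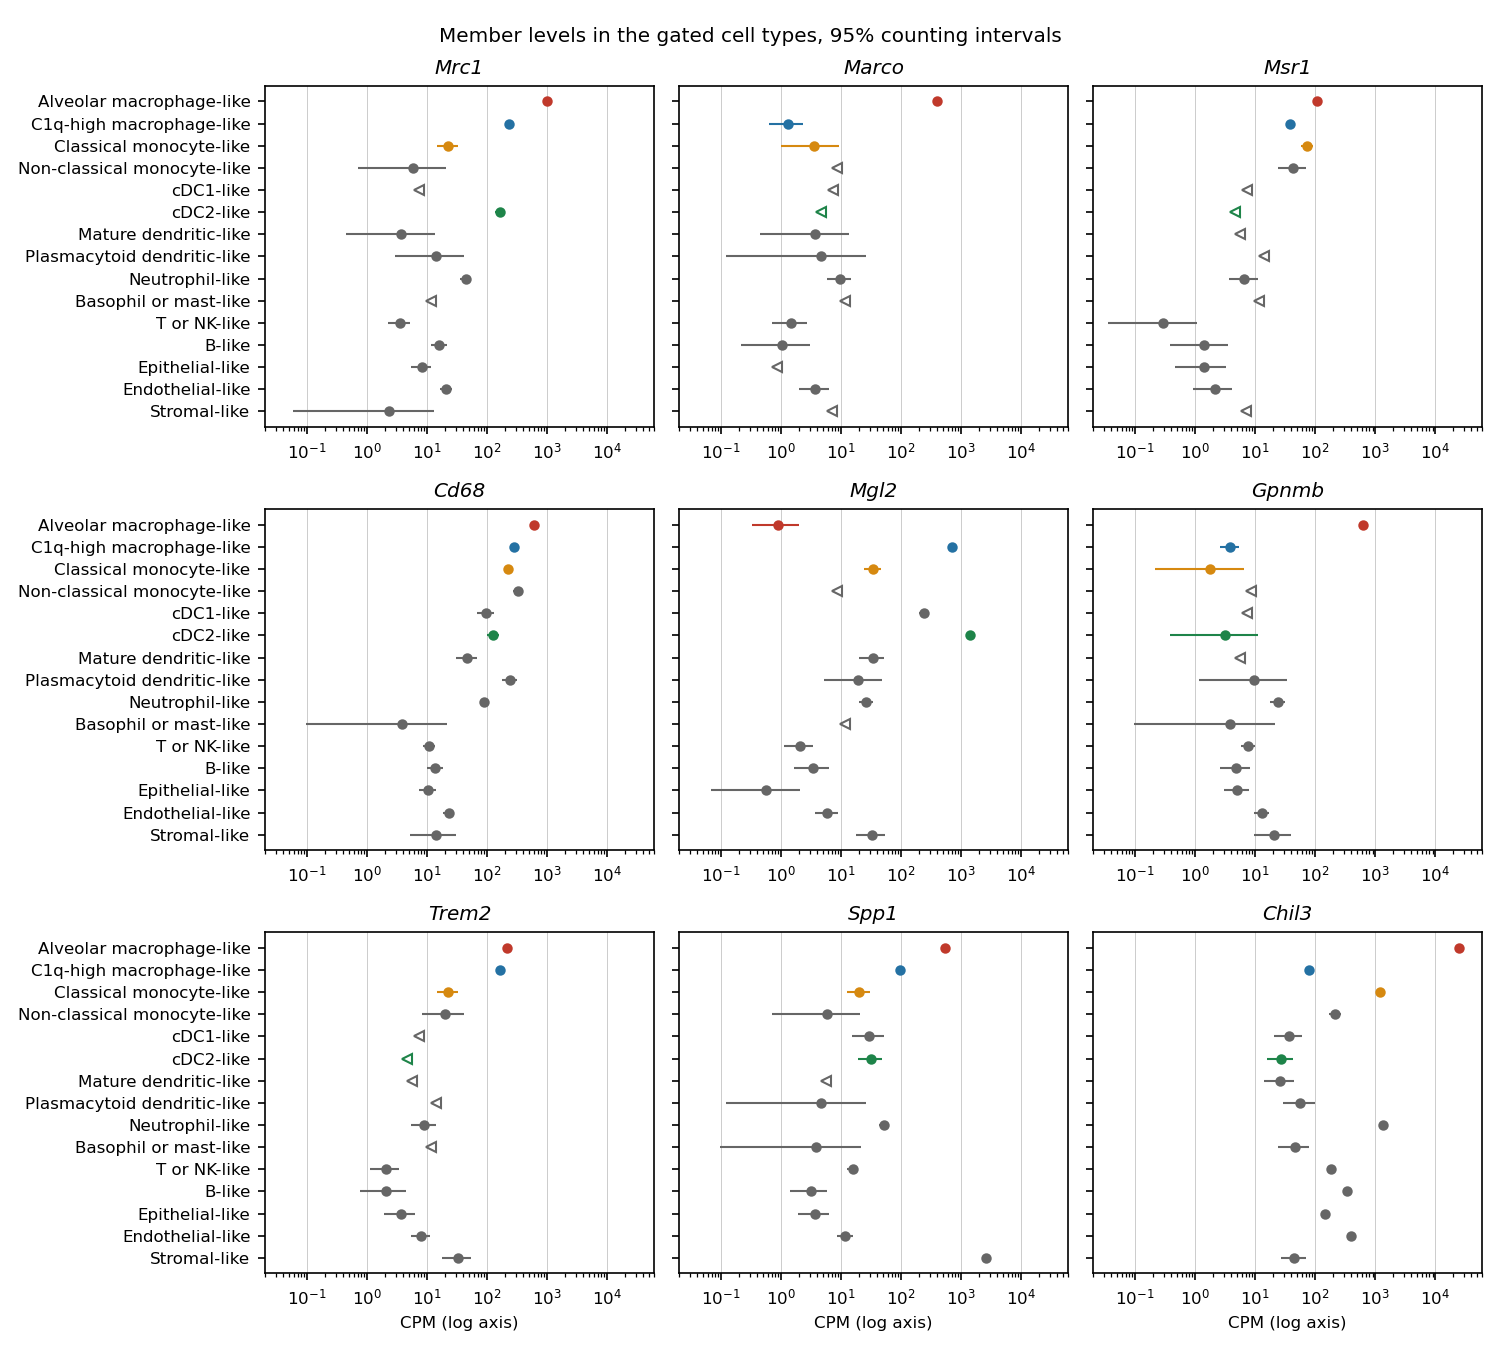
Levels of the 9 members in the 15 gated cell types, in CPM on a log axis. Points are the summed counts of a cell type with exact Poisson 95% intervals, open triangles mark types with no UMI at the level that 3 UMIs would give, and colours mark the 4 types of the main comparisons. Chil3, Gpnmb and Marco sit far to the right in alveolar macrophage-like cells, Mgl2 in C1q-high macrophage-like and cDC2-like cells, and Spp1 in stromal-like cells.

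The promoters of members with contrasting patterns are printed here to show the sequence upstream of genes that are high in alveolar macrophage-like cells (Chil3, Mrc1, Marco and Gpnmb) and of the member that is nearly missing from them (Mgl2). Each is the 250 bases before the first listed start in RefSeq, build GRCm38.p6, 5′ to 3′ along the gene's strand. Capitals mark GAGGAA, a core bound by the myeloid factor PU.1, the E-box letters CATGTG and CACGTG, and the AP-1 letters TGANTCA, each searched on both strands.
Chil3: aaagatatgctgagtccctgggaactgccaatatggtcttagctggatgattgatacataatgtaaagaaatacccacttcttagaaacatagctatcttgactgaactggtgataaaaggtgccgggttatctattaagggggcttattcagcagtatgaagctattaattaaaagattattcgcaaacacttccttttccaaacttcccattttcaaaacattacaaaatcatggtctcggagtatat
Mrc1: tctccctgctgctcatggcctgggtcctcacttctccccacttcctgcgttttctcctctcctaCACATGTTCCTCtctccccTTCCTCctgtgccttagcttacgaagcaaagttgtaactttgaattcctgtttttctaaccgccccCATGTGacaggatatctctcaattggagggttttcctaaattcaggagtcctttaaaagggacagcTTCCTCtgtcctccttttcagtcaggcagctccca
Marco: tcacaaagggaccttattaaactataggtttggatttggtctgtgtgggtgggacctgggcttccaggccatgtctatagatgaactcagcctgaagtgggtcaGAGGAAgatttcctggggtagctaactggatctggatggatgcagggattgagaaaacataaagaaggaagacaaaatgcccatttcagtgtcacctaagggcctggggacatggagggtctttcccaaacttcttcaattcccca
Gpnmb: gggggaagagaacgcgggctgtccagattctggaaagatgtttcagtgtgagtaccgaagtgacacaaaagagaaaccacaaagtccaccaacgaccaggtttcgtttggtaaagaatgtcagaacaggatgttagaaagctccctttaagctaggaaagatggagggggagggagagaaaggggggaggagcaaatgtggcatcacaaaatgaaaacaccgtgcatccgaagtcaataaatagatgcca
Mgl2: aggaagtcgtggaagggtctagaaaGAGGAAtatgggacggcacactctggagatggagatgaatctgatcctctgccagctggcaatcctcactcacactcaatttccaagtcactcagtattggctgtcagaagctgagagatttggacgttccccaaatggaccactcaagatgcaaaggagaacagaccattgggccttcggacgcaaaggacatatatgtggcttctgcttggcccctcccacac

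These windows lie at chr3:106167565-106167814 on the minus strand for Chil3, chr2:14229164-14229413 on the plus strand for Mrc1, chr1:120505025-120505274 on the minus strand for Marco, chr6:49036268-49036517 on the plus strand for Gpnmb and chr11:70130107-70130356 on the plus strand for Mgl2. A promoter was listed for 9 of the 10 members, and GAGGAA was found in 7 of the 9, among them Mrc1 with 3 copies, Marco and Mgl2, while the windows of Gpnmb and Chil3 held none of the motifs searched. Over 27025 promoters of the same length, 23.1% held GAGGAA, 12.2% CATGTG, 6.05% CACGTG and 6.87% TGANTCA. The CATGTG letters were found in 1 member, Mrc1, where a copy on the opposite strand abuts a copy of GAGGAA without overlap. Motif matches did not follow the split between members high and low in alveolar macrophage-like cells, since both Marco and Mgl2 held 1 GAGGAA. A match describes the letters only, and no binding was measured. The other members analysed lie, in GENCODE vM21 on the same build, at chr8:39581685-39642673 (Msr1, minus strand), chr11:69664213-69666153 (Cd68, minus), chr17:48346401-48354147 (Trem2, plus) and chr5:104435118-104441050 (Spp1, plus), and all 9 are annotated as protein-coding.

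Among the scavenger receptors, Mrc1, the mannose receptor, which takes up mannosylated glycoproteins, was at 1011 CPM in alveolar macrophage-like cells (interval 987 to 1035) and at 234 CPM in C1q-high macrophage-like cells (224 to 244). The 4.32-fold difference was a log2 ratio of 2.11 (2.04 to 2.18). cDC2-like cells followed at 167 CPM (137 to 202), lower than C1q-high cells by a log2 ratio whose interval ran from -0.78 to -0.21. Neutrophil-like cells at 44.2 CPM and classical monocyte-like cells at 22.4 CPM were next, and endothelial-like and B-like cells were at 20.8 and 15.8 CPM. With every cell thinned to 1000 UMIs, 61.1% of alveolar macrophage-like cells and 19.8% of C1q-high cells had a Mrc1 UMI, against 0.183% of T or NK-like cells. Without thinning these shares were 97.2% and 51.1%.

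Marco, a class A scavenger receptor for particles and bacteria, separated the macrophage types more sharply than the scavenger receptors Mrc1 and Msr1. It was at 391 CPM in alveolar macrophage-like cells (376 to 406) and at 1.28 CPM, from 11 UMIs, in C1q-high cells, a log2 ratio of 8.26 (7.42 to 9.26) that the alternatives moved between 7.06 and 8.77. The C1q-high level did not exceed the 1.47 CPM of T or NK-like cells and is read as background. No UMI was counted in cDC2-like, cDC1-like or non-classical monocyte-like cells. Of all Marco UMIs in gated cells, 97.6% were in the alveolar gate.

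Msr1, the other class A scavenger receptor of the list, was found in both macrophage and both monocyte types. It was at 108 CPM in alveolar macrophage-like cells (100 to 116), 73.5 CPM in classical monocyte-like cells (58.4 to 91.2), 43.1 CPM in non-classical monocyte-like cells (24.1 to 71.1) and 38.7 CPM in C1q-high cells (34.6 to 43.0). Alveolar cells exceeded classical monocytes by a log2 ratio of 0.55 (0.22 to 0.90), within 2-fold, and C1q-high cells by 1.48 (1.29 to 1.67). The latter ratio fell under 2-fold, to 0.79 (0.50 to 1.09), in the cells where no other type had 2 or more gate markers. The 2 monocyte types did not differ beyond counting error, and neither did non-classical monocyte-like and C1q-high cells. None of the 4 dendritic types had a Msr1 UMI, which allows up to 4.68 CPM in cDC2-like cells, the level of 3 UMIs.

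Cd68, a lysosomal membrane protein of phagocytes, was found in every macrophage, monocyte and dendritic type. It reached 605 CPM in alveolar macrophage-like cells (586 to 623), 328 CPM in non-classical monocyte-like cells (270.4 to 394), 276 CPM in C1q-high cells (265 to 287), 239 CPM in plasmacytoid dendritic-like cells (178 to 315) and 222 CPM in classical monocyte-like cells (195 to 252). Each of the neighbours from non-classical monocyte-like to classical monocyte-like cells had a ratio interval that included 0 on the log2 scale. Taken directly, C1q-high cells exceeded classical monocyte-like cells by a log2 ratio of 0.31 (0.12 to 0.51). cDC2-like cells were lower at 125 CPM (98.9 to 155), and T or NK-like cells were at 10.9 CPM.

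Mgl2 encodes a lectin for terminal galactose and N-acetylgalactosamine also known as CD301b. Among the members, only Mgl2 was at least 2-fold lower in alveolar macrophage-like than in C1q-high cells. It was highest in cDC2-like cells at 1395 CPM (1305 to 1489.9), followed by C1q-high cells at 689 CPM (672 to 707) and cDC1-like cells at 243 CPM (198 to 296). Alveolar macrophage-like cells had 6 Mgl2 UMIs in 6674375, or 0.899 CPM, which is 767-fold below C1q-high cells with a log2 ratio of -9.58 (-11.03 to -8.46) and below the 2.05 CPM of T or NK-like cells. Thinned to 1000 UMIs, 46.2% of cDC2-like and 42.0% of C1q-high cells had a Mgl2 UMI and none of 1175 alveolar macrophage-like cells did. Without thinning 4 of 1184 alveolar macrophage-like cells did, or 0.338% (0.0921 to 0.863%).

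Gpnmb, a glycoprotein of lysosomes and phagosomes, had nearly all its UMIs of gated cells in the alveolar gate, as had Marco and Chil3. The shares were 94.7% for Gpnmb, 97.6% for Marco and 94.8% for Chil3 in that gate. Gpnmb was at 623 CPM there (604 to 642) and at 3.83 CPM in C1q-high cells, from 33 UMIs in 20 cells, a log2 ratio of 7.34 (6.85 to 7.89) that the alternatives moved between 6.57 and 8.32. The C1q-high level was under the 7.63 CPM of T or NK-like cells. Cells in no gate held 3720 of the 8108 Gpnmb UMIs of all cells kept. Over the 15 types the log2 levels of Gpnmb and Marco had a Pearson r of 0.94, a description of 1 pooled sample in which all types share their free RNA.

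Trem2, a receptor for lipids and apoptotic cells that signals through Tyrobp, was the 1 member shared at a similar level by both macrophage types. It was at 212 CPM in alveolar macrophage-like cells (201 to 223) and 164 CPM in C1q-high cells (156 to 173), a log2 ratio of 0.37 (0.26 to 0.47), and the alternatives moved this ratio between -0.25 and 0.56. Classical monocyte-like cells at 22.4 CPM (14.5 to 33.1) and non-classical monocyte-like cells at 20.1 CPM (8.09 to 41.5) did not differ from each other beyond counting error. None of the 4 dendritic types had a Trem2 UMI. Alveolar and C1q-high cells held 47.8% and 47.9% of the Trem2 UMIs of gated cells.

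Spp1, which encodes the secreted phosphoprotein osteopontin, was, like Mgl2, highest outside the macrophages. It was at 541 CPM in alveolar macrophage-like cells (523 to 559), 95.9 CPM in C1q-high cells (89.5 to 103) and 19.7 CPM in classical monocyte-like cells (12.4 to 29.8), where the level was near the 15.6 CPM of T or NK-like cells. The 120 stromal-like cells stood above all of them at 2544 CPM (2396 to 2699.6). A Spp1 UMI was found in 23 of the 120, or 19.2%, against 51.9% of alveolar macrophage-like cells. After thinning to 1000 UMIs these shares were 17.4% and 24.1%. In the stromal-like gate 9 cells held 90% of the 1096 Spp1 UMIs. These 9 cells had no UMI of the macrophage genes C1qa and Lyz2 and 1 of Chil3, and none of Ibsp, a bone matrix protein at 1994 CPM in the other stromal-like cells. Col1a1 and Col1a2, fibrillar collagens, were at 3443.5 and 2829 CPM in them against 2089 and 2305 CPM in the other cells, and Dcn, a proteoglycan of fibroblasts, at 892 against 4676 CPM.

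Chil3, a secreted chitinase-like protein known as Ym1, was in every alveolar macrophage-like cell. It was at 25181 CPM there (25060.5 to 25301.5) and had a UMI in all 1175 cells thinned to 1000 UMIs. Neutrophil-like cells were at 1343 CPM (1294 to 1393) and classical monocyte-like cells at 1188 CPM (1125 to 1253.5), and C1q-high cells were at 80.2 CPM (74.3 to 86.4), a log2 ratio of 8.29 (8.19 to 8.40) for alveolar over C1q-high cells. This ratio was 6.95 without the upper cut-offs and 10.00 without reporter-positive cells outside the epithelium, the lowest and highest of its alternatives. Cell types that lack macrophage markers also had Chil3 UMIs, with 389.7 CPM in endothelial-like, 343 CPM in B-like and 180.4 CPM in T or NK-like cells. The C1q-high and cDC2-like levels lay below all 3 of these and are read as background, while the classical monocyte-like and neutrophil-like levels lay above them. Non-classical monocyte-like cells were between them in level, at 216 CPM, but after thinning 15.3% of these cells had a Chil3 UMI (10.0 to 21.9%), against 5.06% of T or NK-like, 5.55% of B-like and 5.11% of endothelial-like cells. Chil4, its near-identical neighbour on chromosome 3, had 2.70 CPM in alveolar macrophage-like cells, and reads shared by the pair cannot be split with certainty.

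Chil3 UMIs outside the alveolar gate were unevenly spread. The cells holding 90% of them were 25 of 1794 endothelial-like, 38 of 1729 B-like and 144 of 3496 T or NK-like cells. The 5 alveolar check markers summed to 1924, 1222 and 375 CPM in these cells, against 485, 36.9 and 33.0 CPM in the rest. In neutrophil-like cells 60 of 1716 cells held 90% of the Chil3 UMIs. In these 60 cells Ngp was at 5704 CPM and Camp at 5499 CPM, against 193 and 36.3 CPM in the other neutrophil-like cells. Ngp and Camp are granule genes of immature neutrophils and were looked up after the Chil3 values were seen. The summed level of the 5 alveolar check markers was 912 CPM in the 60 cells and 129 CPM in the rest, against 3694 CPM in alveolar macrophage-like cells. Mrc1 was at 456 against 8.18 CPM, Gpnmb at 245 against 4.09 CPM and Marco at 99.3 against 1.53 CPM in the 60 cells and the rest. Spp1 was not higher, at 40.9 against 52.2 CPM. Chil3 in the rest of the neutrophil-like cells was at 146 CPM. Without the cells holding 90% of their Chil3 UMIs, T or NK-like cells had 18.7 CPM and B-like cells 35.1 CPM of Chil3. Endothelial-like cells treated in the same way were also below 146 CPM. The part of alveolar RNA in the neutrophil-like value was not tested.

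In classical monocyte-like cells 80 of 359 cells held 90% of the Chil3 UMIs, at 4905 CPM. The 5 alveolar check markers summed to 238 CPM in these 80 cells, against 82.5 CPM in the rest. A Chil3 UMI was found in 146 of 359, or 40.7%, and after thinning in 112 of 356, or 31.5%, against 5.06% of T or NK-like and 5.55% of B-like cells thinned alike, at median depths of 2992, 1698 and 1396 UMIs before thinning. The 146 cells had a Chil3 level of 3031 CPM while the 5 alveolar check markers summed to 185 CPM, and the 213 cells without a Chil3 UMI had 72.2 CPM of these markers. For every 1000 Chil3 UMIs there were 15.5 Marco and 24.7 Gpnmb UMIs in alveolar macrophage-like cells, 8.14 and 42.3 in T or NK-like cells, 7.01 and 17.5 in neutrophil-like cells, and 3.02 and 1.51 in classical monocyte-like cells. Gpnmb was thus lower relative to Chil3 in classical monocyte-like cells than in the alveolar macrophage-like cells. The classical monocyte-like values rest on 2 Gpnmb and 4 Marco UMIs.

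**Figure D2:**
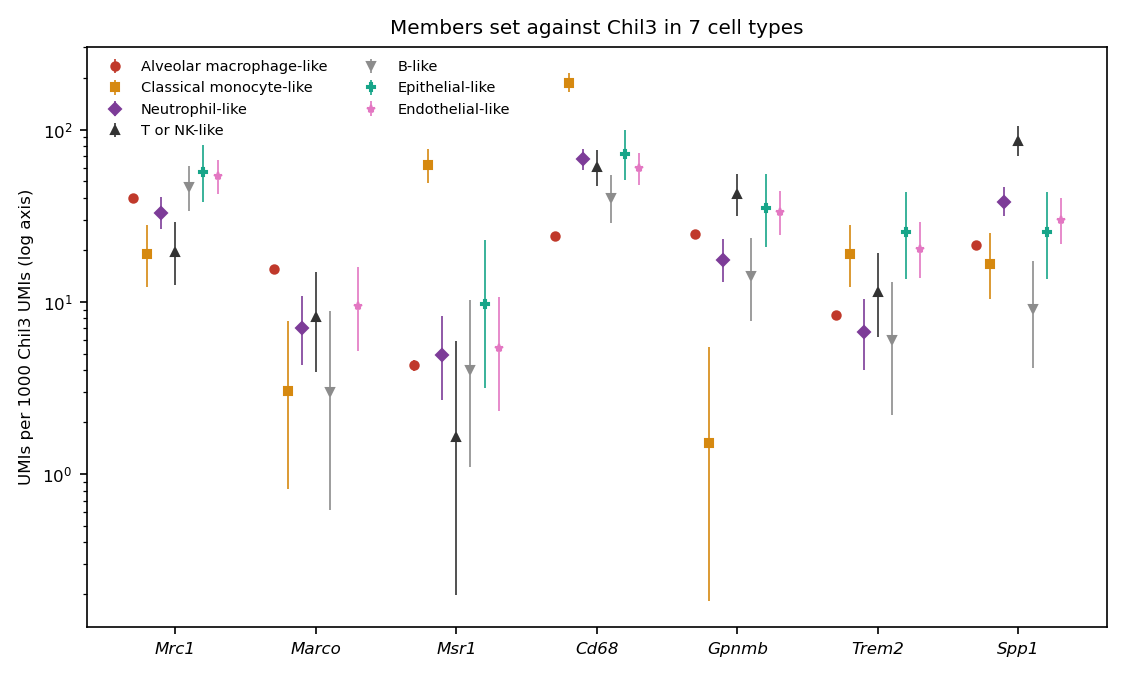
UMIs of 7 members for every 1000 Chil3 UMIs, on a log axis, in the 7 cell types with over 500 Chil3 UMIs other than the C1q-high type, with exact Poisson 95% intervals of the member's count. Gpnmb lies at 1.51 in classical monocyte-like cells and between 14.0 and 42.3 in the other 6 types, and Cd68 at 187 in classical monocyte-like cells and at 24.0 in alveolar macrophage-like cells. A type with no UMI of a member has no point.

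Against classical monocyte-like cells, from which macrophages can arise, C1q-high cells had 4 members at least 2-fold higher of 7 tested (11.1% of all 2921 genes tested) and 1 lower (10.6%). The 4 were Mgl2 with a log2 ratio of 4.34 (3.88 to 4.84), Mrc1 with 3.38 (2.82 to 4.02), Trem2 with 2.87 (2.31 to 3.51) and Spp1 with 2.28 (1.67 to 2.96). All 4 were under 50 CPM in classical monocyte-like cells and were tested only through their C1q-high level. Chil3 was the lower one, at -3.89 (-4.02 to -3.75), and Cd68 at 0.31 and Msr1 at -0.93 lay within 2-fold. The alternatives moved Spp1 between 2.18 and 4.38, the highest where no other type could have 2 or more gate markers, and Chil3 between -5.20 and -2.53. The median log2 ratio was 2.28 over the 7 members and -0.07 over all genes tested.

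Alveolar macrophage-like cells had 7 of 8 members at least 2-fold higher than classical monocyte-like cells (20.8% of 3300 genes tested) and none lower (11.9%). The ratios ran from 1.44 on the log2 scale for Cd68 (1.26 to 1.64) to 8.44 for Gpnmb (6.59 to 11.49), which had 2 UMIs in the monocytes. Mgl2 was under 50 CPM in both types and was not among the 8. Mrc1, Marco, Gpnmb, Trem2 and Spp1 were under 50 CPM in the monocytes and were tested only through their alveolar level. This comparison shares its cells with the others, so the counts are not independent of each other.

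Between dendritic cells and macrophages, cDC2-like cells had 1 of 6 members at least 2-fold higher than C1q-high cells (4.18% of 2753 genes tested), Mgl2 with a log2 ratio of 1.02 (0.91 to 1.12). Its interval included 2-fold, and under 4 of the alternatives the ratio fell below it. The 4 lower members (8.39% of genes) were Trem2, with no UMI in cDC2-like cells and at least 35.1-fold lower when set to 3 UMIs, Spp1 at -1.62 (-2.34 to -0.98), Chil3 at -1.60 (-2.39 to -0.91) and Cd68 at -1.15 (-1.49 to -0.82). Mrc1 was within 2-fold at -0.49, but reached -2.01 (-3.46 to -0.87) where no other type could have 2 or more gate markers, which left 26 cDC2-like cells. Trem2, Spp1 and Chil3 were under 50 CPM in cDC2-like cells and were tested only through their C1q-high level. Chil3 was below its background level in both types. Its call was lost with a gate margin of 3 markers at -0.45, with upper cut-offs at the 95th percentile at -0.52 and without reporter-positive cells outside the epithelium at -0.63, and its direction reversed, to 0.26, without the upper cut-offs. With the T or NK-like level subtracted, no Chil3 was left in either type.

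**Figure D3:**
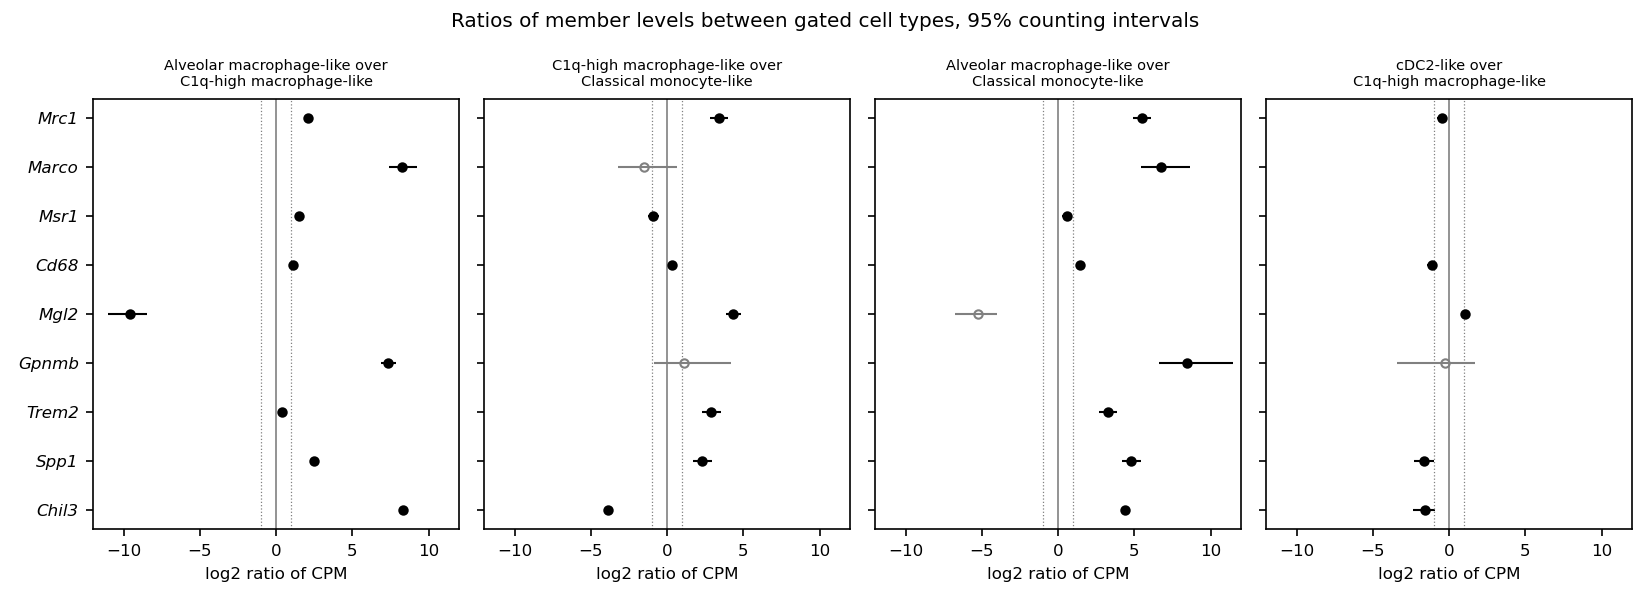
Log2 ratios of member levels in the 4 comparisons of cell types, with exact conditional 95% intervals. Dotted lines mark 2-fold, open grey points are members under 50 CPM in both types, and members with no UMI in one of the types have no point. In the first panel 7 members lie to the right of the 2-fold line, Mgl2 lies at -9.58 and Trem2 at 0.37.

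Within the alveolar macrophage-like cells the members differed in how their UMIs were spread. Mrc1 and Chil3 were the most even, with the top 10% of cells holding 23.3% and 27.2% of UMIs. Spp1 was the most concentrated, the top 10% of cells holding 64.8% of its UMIs, 337 of 1184 cells holding 90% and 1 cell holding 182 of 3610. Marco followed with 54.0% in the top 10% of cells and a UMI in 565 cells. Msr1, with 720 UMIs in all, had 40.7% in its top 10%, and Gpnmb, with 4156 UMIs, had 34.9%. Spp1 and Marco, with 3610 and 2607 UMIs, were therefore more concentrated than Gpnmb and also than Msr1, although Msr1 had fewer UMIs.

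**Figure D4:**
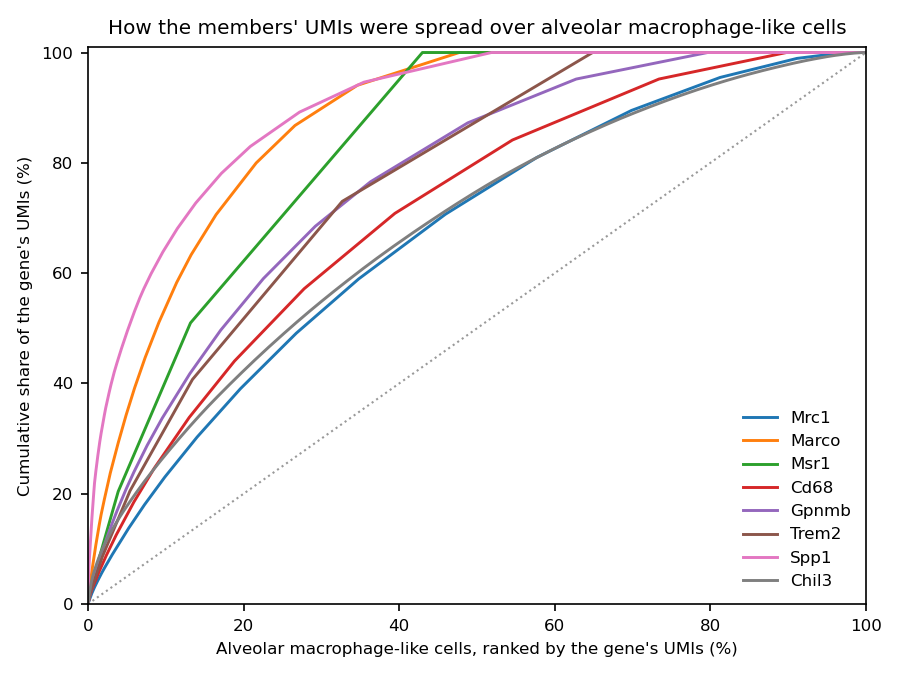
Cumulative share of each member's UMIs over alveolar macrophage-like cells ranked from the highest to the lowest count of that gene, both in percent, with a dotted line for equal counts in every cell. The curves of Spp1 and Marco rise fastest, reaching 64.8% and 54.0% in the top 10% of cells, and those of Chil3 and Mrc1 lie nearest the line. Straight stretches are cells tied at the same low count, and Mgl2 with 6 UMIs is not drawn.

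Single alveolar macrophage-like cells often had UMIs of several members. After thinning to 1000 UMIs these cells had a median of 3 of the 9 members with a UMI, and 94.8% had 2 or more, against 32.0% of C1q-high, 18.5% of cDC2-like, 13.2% of classical monocyte-like and 0.488% of T or NK-like cells. Chil3 had a UMI in all 1175 thinned alveolar macrophage-like cells, so any further member brought such a cell to 2 or more. With Chil3 left out, 71.7% of alveolar macrophage-like and 30.5% of C1q-high cells had 2 or more. With all 9 members counted, 4.83% of neutrophil-like cells had 2 or more, from the 704 of 1716 that reached 1000 UMIs. These shares also depend on how often each member was detected. Whether members shared cells more often than their separate detection shares would give was not tested.

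The alveolar macrophage-like cells carried the tdTomato reporter that Cre switches on. TdTomato was at 2743 CPM in them, against 5586 CPM in epithelial-like and 154 CPM in T or NK-like cells, and 1105 of the 1184 had 2 or more TdTomato UMIs, the kind of cell that the study's own methods left out of its analysis. Compared with the 58 cells that had none, the 1105 had Marco at 401 against 189 CPM, a log2 ratio of 1.09 (0.71 to 1.49). Chil3 was lower in them, at 24619.6 against 36926 CPM and -0.58 (-0.61 to -0.56), as were Gpnmb at -0.34 (-0.53 to -0.15) and Spp1 at -0.23 (-0.44 to -0.01). Mrc1, Msr1, Cd68 and Trem2 had intervals that included 0, the widest being that of Msr1, from -0.60 to 0.41. The mice to which the 58 and the 1105 cells belong were not known, so reporter and mouse cannot be told apart. With all reporter-positive cells outside the epithelium left out, 79 alveolar macrophage-like cells remained and the counts of members higher and lower than in C1q-high and classical monocyte-like cells stayed at 7 and 1 and at 7 and 0.

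The summed levels of several other members also differed beyond counting error between cells with and without a Gpnmb UMI. In the 943 alveolar macrophage-like cells with Gpnmb, Cd68 was at 641 CPM against 424 CPM in the 241 without, a log2 ratio of 0.60 (0.46 to 0.74). Chil3 was higher at 0.55 (0.53 to 0.57) and Marco at 0.33 (0.17 to 0.50), while Msr1 was lower at -0.40 (-0.67 to -0.14) and Spp1 at -0.23 (-0.35 to -0.11). Mrc1 and Trem2 had intervals that included 0. The cells with Gpnmb had a median of 5830 UMIs and those without 4761, and the part of depth in these differences was not tested.

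**Figure D5:**
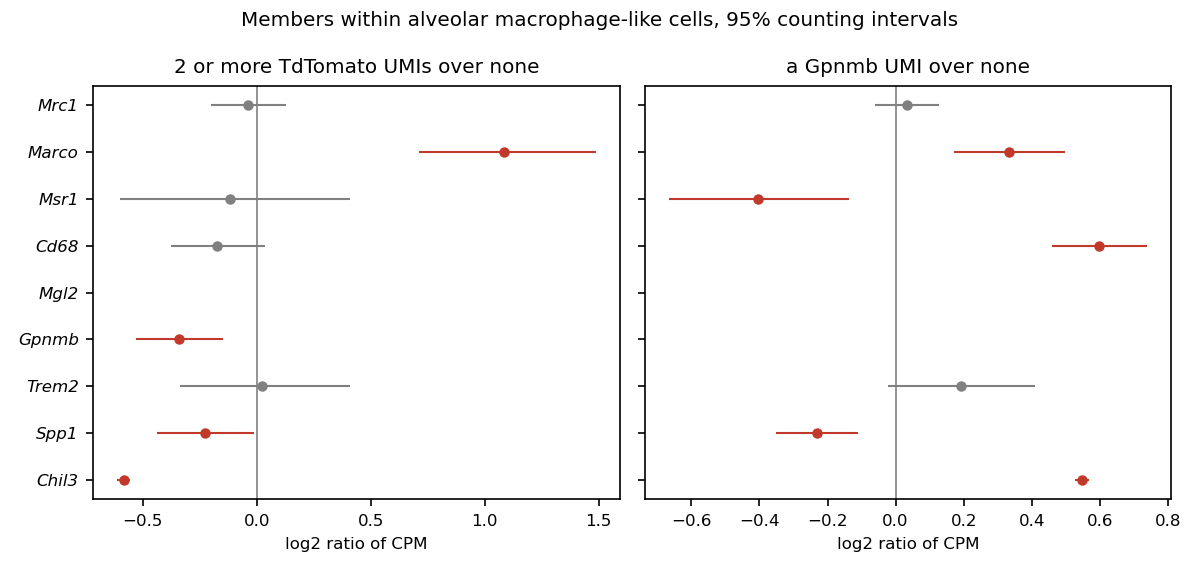
Log2 ratios of member levels within alveolar macrophage-like cells, with exact conditional 95% intervals, for cells with 2 or more TdTomato UMIs over cells with none and for cells with a Gpnmb UMI over cells with none. Red points have intervals off 0 and grey points do not. Marco lies highest in the first panel at 1.09, and Chil3 changes side, at -0.58 in the first panel and 0.55 in the second. Mgl2 had 6 UMIs and is not drawn, and Gpnmb defines the second split.

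In the C1q-high gate only 20 of 1954 cells had a Gpnmb UMI. These 20 held 364 of the 691 Chil3 UMIs of the gate, at 3322 against 38.4 CPM, and Spp1 was at 967 against 84.7 CPM, a log2 ratio of 3.51 (3.21 to 3.81). The alveolar check markers summed to 985 CPM in the 20 cells, 339 CPM in the other C1q-high cells and 3694 CPM in alveolar macrophage-like cells, and their part in the result was not tested. Over the whole C1q-high gate 179 cells, the Gpnmb cells not set aside, held 90% of the Spp1 UMIs. In those 179 cells the alveolar check markers summed to 482 CPM against 332 CPM in the rest, and the alveolar gate markers to 168 against 293 CPM.

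Many cells with alveolar markers met no gate. Cells in no gate numbered 5597, or 28.7% of those kept, and held 130333 of 307655 Chil3 UMIs. Of these, 433 cells had at least 3 alveolar gate markers and no other type with more, 265 of them with cDC1-like and 134 with non-classical monocyte-like markers next or tied. Their Chil3 level was 28673 CPM, Gpnmb 737 CPM, Mrc1 1022 CPM and Cd68 623 CPM, near those of the gated alveolar cells, while Marco at 162 CPM (147 to 179) and Spp1 at 347 CPM (324 to 370.3) were lower.

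Related genes are given by 5 lists of 55 genes, 54 of which were looked up in the table, with counts of at least 2-fold differences between alveolar and C1q-high macrophage-like cells. Of all genes tested between these types 18.2% were higher and 9.61% lower in alveolar cells. Of 9 further scavenger receptors and partners tested, 5 were higher and 2 lower. Olr1, a receptor for oxidized lipoprotein, was at 343 against 8.01 CPM, Cd36, a fatty acid receptor, at 213 against 27.9 CPM, and Mertk, which recognizes dying cells, at 218 against 32.6 CPM, while Cxcl16, at once a scavenger receptor and a chemokine, was at 24.1 against 573 CPM and Stab1, a receptor of tissue macrophages, at 0.150 against 57.2 CPM. Of 13 lipid and lysosome genes, 7 were higher and 1 lower. Ctsd, a lysosomal protease, was at 4584 against 311 CPM and Plin2, a coat of lipid droplets, at 1218 against 203 CPM, but Apoe, the lipid carrier often named beside Trem2 and Gpnmb, was at 7.64 against 4704 CPM.

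Of 5 genes of alternative activation tested, 1 was higher in alveolar macrophage-like cells, a share near the 18.2% of all genes, Tgm2 at 169 against 80.7 CPM, and 2 were lower (9.61% of all genes), Ccl17, a chemokine for T cells, at 1.95 against 1803 CPM and Retnla, the secreted protein Fizz1, at 1.498 against 386 CPM. Thus Chil3 and Retnla, usually named together, lay on opposite sides in these cells. Arg1 was at 0.749 CPM in alveolar and 12.5 CPM in C1q-high cells. Of 6 inflammatory genes tested, none was at least 2-fold higher in alveolar cells (18.2% of all genes) and 3 at least 2-fold lower (9.61%). The lower ones were Il1b at 561 against 3083 CPM, Cd86 at 28.5 against 293 CPM and Cxcl10 at 11.5 against 67.0 CPM. The others lay within 2-fold. Il1a at 124 against 67.1 CPM and Tnf at 170 against 122 CPM were higher, and Cd80 at 30.0 against 53.3 CPM was lower. Nos2 had no UMI in either type.

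Among 5 myeloid lectins tested beside the members, 1 was higher in alveolar than in C1q-high cells, near the 18.2% of all genes. It was Clec4e, a receptor for mycobacterial glycolipid, at 119 against 17.4 CPM. None was at least 2-fold lower (9.61% of all genes). Clec12a, Clec4a2 and Clec4a3 were lower within 2-fold, at log2 ratios of -0.52, -0.45 and -0.46. Lectins under 50 CPM in both types were not tested. Among them Clec4a1 was at 0.899 against 44.2 CPM and Clec4d at 36.9 against 22.8 CPM. Clec4n, which encodes dectin-2, was at 633 and 641 CPM. Against classical monocyte-like cells C1q-high cells had 1 of 8 lectins higher (11.1% of all genes) and 4 lower (10.6%), and cDC2-like cells had Clec4b1 at 169.9 CPM against 32.2 CPM in C1q-high cells. Mgl2 was therefore joined by Clec4b1 and Cd209d, at 106 against 3.13 CPM, among lectins at least 2-fold higher in cDC2-like cells. Of 6 lectins tested beside the members, 2 were higher (4.18% of all genes) and 2 lower (8.39%). The Mgl2 ratio fell below 2-fold under some alternatives. The lectin genes Cd209a and Clec10a were among the cDC2-like gate markers, and their part in these levels was not tested.

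The genes whose levels over the 15 types were most like those of a member, by Pearson r of log2(CPM + 10) among 6201 genes, were named by a fixed rule. For Marco they were Htr2c with r = 0.99 and Vstm2a with 0.99, for Gpnmb F7 with 0.97 and Adcy3 with 0.96, and for Chil3 Ms4a8a with 0.91 and Samd8 with 0.89. Cd68 was nearest to Psap with 0.95 and Tmem14c with 0.94, Msr1 to F10 with 0.95 and Snx1 with 0.90, Mrc1 to Lrp12 with 0.92 and Arl11 with 0.90, and Trem2 to Pla2g15 with 0.89 and Tex261 with 0.86. Mgl2 was nearest to B4galt6 with 0.90 and Dcstamp with 0.88, at 66.7 and 297 CPM in C1q-high cells and 0.449 and 10.2 CPM in alveolar cells. Spp1 was nearest to Ccdc80 with 0.94, at 258 CPM in stromal-like and 88.4 CPM in alveolar cells, and Lhfpl2 with 0.91. The 15 points share 1 pooled sample and its free RNA, and the values describe likeness only.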

How the data were processed

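Viable cells from lung tumors of 4 mice were profiled by the authors with 3' single-cell RNA sequencing. The deposited matrix holds UMI counts per gene and cell, which the authors made with Cell Ranger (version 3.0.2 in the file header) on mm10 with added GFP and TdTomato; it was not normalized. A further allele shared by all 4 mice is not reported here. Cells carry no mouse, so the pooled matrix was treated as 1 sample without replicates and no test between conditions was made. Depth per mouse is therefore unknown; the pool held 58624795 UMIs, with a median of 1960 per cell.

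Cells with at least 200 genes were kept, and cells above the 98th percentile of genes (2713) or of mitochondrial share (13.4%) were left out. A cell was gated to a type when at least 3 of 8 gate markers had a UMI and at least 2 more than for any other type; the C1q-high gate also needed 2 of 3 C1q genes. The type names are those of these gates and not of the study, from which they may differ. Doublets were not called: the gate margin and stricter gates stood in for a caller. UMIs were summed per type and divided by the type's total to give CPM, with exact Poisson intervals; ratios have exact conditional intervals and shares exact Clopper-Pearson intervals, all at 95% and for counting error only, as is the limit of 3 UMIs for a count of 0. Genes at 50 CPM or more in either type were counted as different at 2-fold or more. Cells were thinned to 1000 UMIs for shares. The ratio and its interval were tested on simulated data.

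Named genes were the members, the related lists and, for each member, the 2 genes most like it. The members, lists and gates were chosen with earlier results of these data known. Alternatives were another marker minimum, margin or purity of the gate, other cell filters, equal weight per cell, reporter-positive cells left out, no minimum CPM, the T or NK-like level subtracted and other thinning depths; adding ungated cells with alveolar markers was chosen after seeing the data. Python 3.11.15, numpy 2.4.6, scipy 1.17.1 and pandas 2.3.3 were used.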

Additional observations from a re-analysis of the deposited data

How the results depend on the processing

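The counts of members called kept their values within 1.5 times in 106 of 113 recalculations. Some of these could not differ, since adding ungated alveolar cells left the comparisons without alveolar cells unchanged. The count higher in cDC2-like than in C1q-high cells, 1 in the report, was 0 with a gate margin of 1 marker, with no other type at 2 or more gate markers, with upper cut-offs at the 95th percentile and with each cell weighted equally, with Mgl2 at log2 ratios of 0.86, 0.68, 0.97 and 0.81 in that order. Without a minimum CPM, the count lower in C1q-high than in classical monocyte-like cells was 2 in place of 1 and that lower in alveolar than in classical monocyte-like cells 1 in place of 0, since more genes were tested. Members that differed between alveolar cells with and without a Gpnmb UMI numbered 3 in place of 5 when reporter-positive cells were left out, which left 79 alveolar cells. Of 376 recalculated log2 ratios, 315 stayed within the counting interval, 59 moved beyond it and 2 reversed. The 315 include ratios that could not move, since leaving out the minimum CPM changed no ratio. A ratio was counted as reversed only where it was at least 2-fold in the report. Gpnmb, C1q-high over classical monocyte-like cells, turned to -1.28 with no other type at 2 or more gate markers, from few UMIs. Chil3, cDC2-like over C1q-high cells, turned to 0.26 with no upper cut-offs. The cause was not tested for either. Some ratios under 2-fold in the report also changed sign. Trem2, alveolar over C1q-high cells, went from 0.37 to -0.25 (-0.42 to -0.09) with no other type at 2 or more gate markers. Gpnmb, cDC2-like over C1q-high cells, went from -0.30 to 0.82 with a gate margin of 3 markers. Of 396 recalculated levels 103 moved beyond the counting interval, and of 108 shares at other thinning depths 69 did, since shares rise with depth. No paired analysis was possible because the pooled matrix carries no mouse or replicate number. Counting intervals leave out the variation between cells of a type and the variation between mice, and these data do not measure the latter.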
